A study of Caenorhabditis elegans with 8 samples.

Results

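The 4 genes described here are the Caenorhabditis elegans metallothionein genes mtl-1 and mtl-2 and the ferritin genes ftn-1 and ftn-2. They were taken by name, each symbol matching 1 gene identifier of the WBcel235 annotation, from the 46904 genes of the deposited tables. All 4 were among the 13722 genes that passed the filter on low counts and were tested. mtl-1 and ftn-1 passed it only through their counts in the daf-2 strains described below. RNA was sequenced from whole worms on day 1 of adulthood, raised at 20 °C. The 4 genotypes were wild type (strain N2), daf-2(e1370) (strain CF1041), hel-1(gk148684) (strain IJ501) and hel-1(gk148684); daf-2(e1370) (strain IJ1121), with 2 libraries described as independent biological repeats for each. daf-2 encodes the insulin/IGF-1 receptor, whose reduced function frees the FOXO transcription factor DAF-16, and hel-1 encodes an RNA helicase that the study places in DAF-16 signalling. The study asked how loss of hel-1 changes expression with and without the daf-2 mutation. Both hel-1 strains carry the same allele and both daf-2 strains carry e1370, so an allele cannot be told apart from any other difference between the strains.

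Metallothioneins are small cysteine-rich proteins that bind zinc, copper and cadmium. In C. elegans mtl-1 is known for expression in the pharynx and, under metal stress, in the intestine, and mtl-2 for metal-induced expression in the intestine. Ferritins are protein shells that store iron in a form that does not feed oxidative chemistry. In the C. elegans intestine ftn-1 and ftn-2 are turned up by iron and held down by the hypoxia factor HIF-1 when iron is short, and the GATA factor ELT-2 drives intestinal transcription of both families. mtl-1 and ftn-1 are long-standing examples of genes that daf-2 mutants express through DAF-16.

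In the WBcel235 annotation all 4 genes lie on the minus strand and have 1 transcript each. mtl-1 (WBGene00003473) is at chrV:6691371-6691863, mtl-2 (WBGene00003474) at chrV:14018270-14018673, ftn-1 (WBGene00001500) at chrV:7546468-7547579 and ftn-2 (WBGene00001501) at chrI:3680180-3680927. The metallothionein genes have 2 exons and 373 and 347 exonic bases, and the ferritin genes 3 exons and 606 and 651 exonic bases. None of the 4 shares exon bases with another annotated gene on either strand. All 32 of their deposited values (4 genes in 8 libraries) are whole numbers, although the tables hold estimated counts.

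Within each family 1 gene was high in every genotype and the other was nearly silent outside the daf-2 strains. In the wild type the high pair, mtl-2 and ftn-2, stood at 93.9 and 217 CPM per kilobase of exon. CPM are counts scaled to a common library size with TMM factors. This pair lay above 91.4% and 96.5% of the tested genes. The other pair, mtl-1 and ftn-1, stood at 0.247 and 0.195 CPM per kilobase, above 9.72% and 7.13% of them. In daf-2 worms mtl-1 reached 85.1 CPM per kilobase and ftn-1 21.4, above 91.2% and 65.4% of the tested genes.

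**Figure D1:**
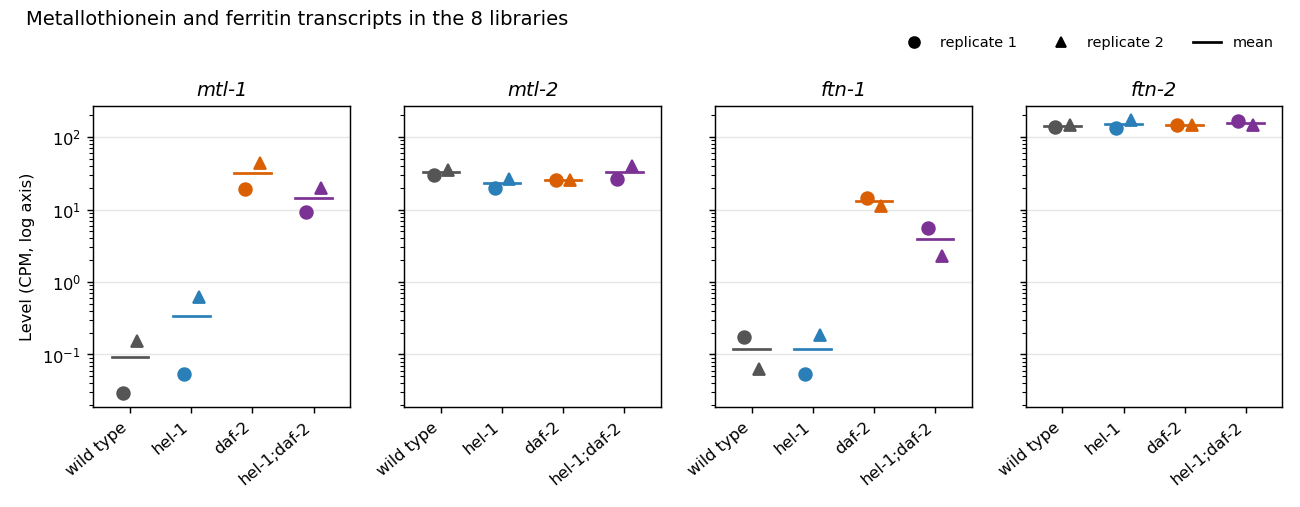
Level of each gene in CPM (log axis) in the 8 libraries, with circles for replicate 1, triangles for replicate 2 and lines for the mean of 2. mtl-1 and ftn-1 reach at most 0.623 CPM in wild type and hel-1 and at least 2.29 CPM in both daf-2 strains. Over the 8 libraries mtl-2 runs from 19.6 to 39.5 CPM and ftn-2 from 135 to 172 CPM.

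mtl-1 had 1 and 5 counts in wild type replicates 1 and 2, which are 0.0291 and 0.155 CPM. In hel-1 it had 2 and 20 counts, or 0.053 and 0.623 CPM. In daf-2 it had 605 and 1781 counts, or 19.1 and 44.4 CPM, and in hel-1;daf-2 308 and 625 counts, or 9.26 and 19.6 CPM. Every library with the daf-2 mutation was higher than every library without it, the 2 daf-2 strains overlapped each other, and so did wild type and hel-1. Libraries did not overlap for 64.5% of all tested genes between daf-2 and wild type. The share was 62.4% between hel-1;daf-2 and wild type and 66.9% between hel-1;daf-2 and hel-1. It was not computed for both daf-2 strains together.

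In daf-2 worms mtl-1 rose above wild type by 8.40 ± 0.97 on the log2 scale (± SE, adjusted p = 0.00247, edgeR, n = 2 libraries per genotype). The mean level went from 0.0922 ± 0.0892 to 31.7 ± 17.9 CPM (± SD). From the summed counts, 6 against 2386, the ratio was 369 with an exact 95% interval of 169 to 1010 that covers counting error only. This was the 24th highest fold change of the 13722 genes. The value was 7.63 without wild type replicate 1, 9.91 without wild type replicate 2 and 7.68 without daf-2 replicate 2, and the call held in all 8 fits that leave out 1 library.

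ftn-1 had 6 and 2 counts in wild type replicates 1 and 2 (0.174 and 0.0621 CPM) and 2 and 6 counts in hel-1 (0.053 and 0.187 CPM). In daf-2 it had 465 and 454 counts (14.7 and 11.3 CPM), and in hel-1;daf-2 it had 186 and 73 counts (5.59 and 2.29 CPM). The 4 daf-2-mutant libraries were above the other 4, and unlike mtl-1 the daf-2 and hel-1;daf-2 libraries did not overlap. Between daf-2 and hel-1;daf-2 this held for 53.3% of all tested genes, and between daf-2 and wild type for 64.5%. The daf-2 libraries lay close together, so that the level was 13 ± 2.36 CPM, a coefficient of variation of 18.2% against 56.4% for mtl-1.

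ftn-1 rose in daf-2 by 6.72 ± 0.65 on the log2 scale (adjusted p = 0.00136), and the ratio of summed counts was 107 (exact 95% counting interval 53.8 to 247). It stood at 7.61 without wild type replicate 1, and the call held in all 8 fits that leave out 1 library. Thus 2 of the 4 genes rose in daf-2, where 19.3% of all tested genes were called, 12.1% higher and 7.21% lower. That mtl-1 and ftn-1 would rise was known when the genes were chosen.

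mtl-2 and ftn-2 did not pass the test in daf-2. mtl-2 had 30.2 and 34.9 CPM in wild type replicates 1 and 2 and 25.7 and 25.3 in daf-2, a log2 fold change of -0.35 ± 0.20 (adjusted p = 0.226, 95% interval -0.82 to 0.12). ftn-2 had 137 and 145 CPM in wild type and 147 and 145 in daf-2, a log2 fold change of 0.05 ± 0.12 (adjusted p = 0.778, 95% interval -0.23 to 0.33). By that interval ftn-2 lay between 0.852 and 1.26 times its wild-type level, against the 105-fold fitted rise of ftn-1. All 4 genes had wild-type and daf-2 libraries that did not overlap, as did 64.5% of all tested genes, so this alone says little of them.

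**Figure D2:**
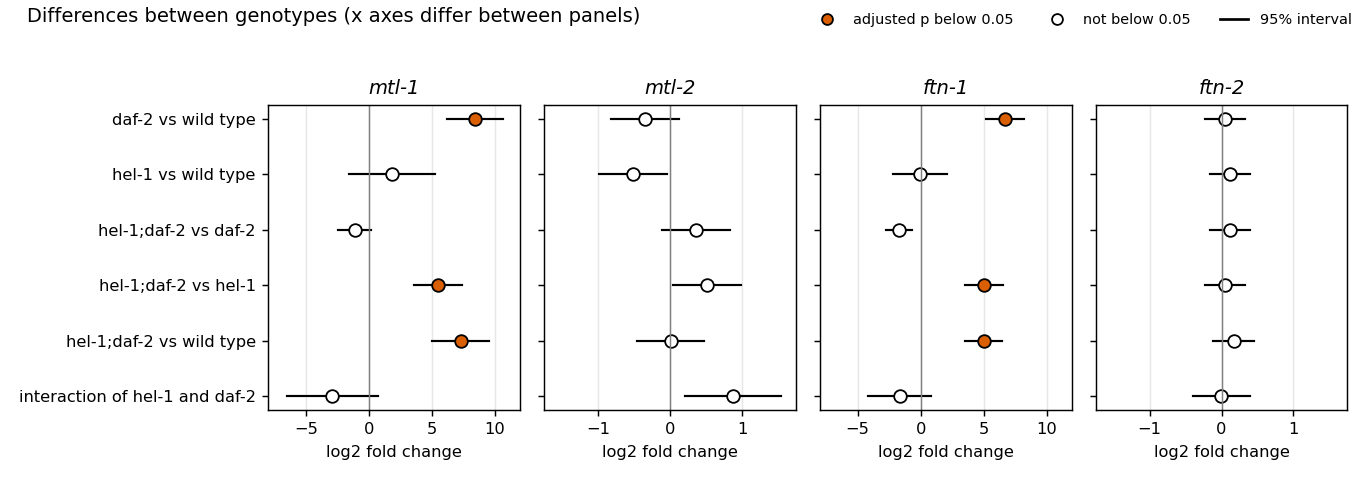
Log2 fold change of each gene in 5 comparisons of genotypes and the interaction (the hel-1 effect in daf-2 worms minus that in wild type), with 95% intervals from the fit of all 8 libraries. Filled points passed an adjusted p of 0.05: 3 for mtl-1, 3 for ftn-1 and none for mtl-2 or ftn-2, whose panels have a narrower axis.

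The hel-1 mutation without the daf-2 mutation left all 4 genes without a call, where 0.415% of all tested genes were called, 0.364% higher and 0.051% lower. mtl-1 and ftn-1 entered this test only through the daf-2 strains. In a fit of wild type and hel-1 alone, both fell below the filter on low counts. mtl-1 had a log2 fold change of 1.79 ± 1.48 from wild type (adjusted p = 0.586), with a 95% interval of -1.63 to 5.21 that reaches from a fall to a large rise. Of its 22 hel-1 counts 20 came from replicate 2, and without that library the value was -0.73. ftn-1 stood at -0.05 ± 0.94 (adjusted p = 0.985) from 8 counts in each genotype. The interval of ftn-1 runs from 0.213 to 4.39 times the wild-type level, so a fall or a rise within that range remains possible.

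mtl-2 was lower in hel-1, with 19.6 and 26.3 CPM, than in wild type, and the libraries did not overlap. Its log2 fold change was -0.51 ± 0.20 with an unadjusted p of 0.0379, but it failed the adjustment (adjusted p = 0.382). ftn-2 had 135 and 172 CPM in hel-1, on both sides of wild type, and a log2 fold change of 0.12 ± 0.12 (adjusted p = 0.645, 95% interval -0.16 to 0.40). Non-overlapping libraries were seen for 59.2% of all tested genes in this comparison, and for 1 of the 4 genes here.

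Adding hel-1 to daf-2 lowered the mean of both daf-2-responsive genes, but neither passed the test. mtl-1 had 31.7 ± 17.9 CPM in daf-2 and 14.4 ± 7.32 in hel-1;daf-2, a log2 fold change of -1.14 ± 0.57 (adjusted p = 0.32, 95% interval -2.46 to 0.18). The higher double-mutant library (19.6 CPM) was level with the lower daf-2 library (19.1 CPM). Without daf-2 replicate 2 the value was -0.39.

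ftn-1 had 13 ± 2.36 CPM in daf-2 and 3.94 ± 2.33 in hel-1;daf-2, a log2 fold change of -1.72 ± 0.45, or 3.29-fold lower, with an unadjusted p of 0.00528 and an adjusted p of 0.257. Over all tested genes 0.051% were called here, 0.0364% lower and 0.0146% higher, and 2307 genes had an unadjusted p under 0.05. ftn-1 was 276th by adjusted p. DESeq2 (-1.66, adjusted p = 0.00793) and edgeR with no filter on low counts (-1.696, adjusted p = 0.00732) called it lower, but those fits also called 234 and 610 genes in place of 7. Without daf-2 replicate 1, ftn-1 (-1.49, adjusted p = 0.0453) and mtl-1 (-1.59, adjusted p = 0.0409) were both called, in a fit that called 5812 genes. Without either double-mutant library ftn-1 ranged from -1.21 to -2.49 and was not called.

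The means of mtl-2 and ftn-2 leaned the other way. mtl-2 had 26.1 and 39.5 CPM in hel-1;daf-2, above both daf-2 libraries, and a log2 fold change from daf-2 of 0.36 ± 0.20 (adjusted p = 0.344, 95% interval -0.11 to 0.83). ftn-2 had 169 and 148 CPM, also above both, and a log2 fold change of 0.12 ± 0.12 (adjusted p = 0.537, 95% interval -0.16 to 0.40). Libraries of the 2 groups did not overlap for 3 of the 4 genes, mtl-1 being the exception, and for 53.3% of all tested genes. Scaled by library totals alone, mtl-2 (25.61 and 28.39 in daf-2, 26.12 and 39.87 in the double mutant) and ftn-2 (146.2 and 162.9, 168.9 and 149.5) overlapped.

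The double mutant stayed far above the strains without the daf-2 mutation for both responsive genes. Against hel-1, mtl-1 rose by 5.48 ± 0.81 on the log2 scale (adjusted p = 0.0104) and ftn-1 by 5.05 ± 0.65 (adjusted p = 0.00582), where 5.61% of all tested genes were called, 2.96% higher and 2.65% lower. The summed counts were 933 against 22 for mtl-1, a ratio of 45.4 (exact 95% counting interval 29.8 to 72.9), and 259 against 8 for ftn-1, a ratio of 34.7 (17.3 to 81.2). The mtl-1 call was lost without hel-1 replicate 1 (4.53, adjusted p = 0.051) and without hel-1;daf-2 replicate 2 (4.83, adjusted p = 0.056), and the value was 7.99 without hel-1 replicate 2. ftn-1 stood at 4.37 and 6.12 without hel-1 replicates 1 and 2 and at 4.26 without hel-1;daf-2 replicate 1, called each time.

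Against wild type, mtl-1 rose in the double mutant by 7.26 ± 0.98 (adjusted p = 0.00772) and ftn-1 by 5.0 ± 0.65 (adjusted p = 0.00671), where 4.26% of all tested genes were called, 3.1% higher and 1.17% lower. These ranked 18th and 53rd of the 13722 fold changes. The mtl-1 call was lost without wild type replicate 1 (6.50, adjusted p = 0.073) or 2 (8.79, adjusted p = 0.0628), and its value was 6.62 without hel-1;daf-2 replicate 2. The ftn-1 call was lost without wild type replicate 2 (4.47, adjusted p = 0.0671), and its value was 5.91 without wild type replicate 1 and 4.22 without hel-1;daf-2 replicate 1. The comparisons share libraries: wild type is in 3 of them, and the double mutant in 3.

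mtl-2 and ftn-2 were not called in either comparison of the double mutant with a strain that lacks the daf-2 mutation. Against hel-1 the log2 fold change of mtl-2 was 0.52 ± 0.20 (unadjusted p = 0.0355, adjusted p = 0.185; adjusted p = 0.0438 with no filter on low counts), with libraries of 26.1 and 39.5 CPM overlapping 19.6 and 26.3. Against wild type it was 0.01 ± 0.20 (adjusted p = 0.986, 95% interval -0.46 to 0.48). ftn-2 stood at 0.05 ± 0.12 against hel-1 (adjusted p = 0.847) and 0.17 ± 0.12 against wild type (adjusted p = 0.482). The libraries did not overlap for mtl-1 and ftn-1 against hel-1, as for 66.9% of all tested genes, and for mtl-1, ftn-1 and ftn-2 against wild type, as for 62.4%.

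The interaction asks whether the hel-1 effect differs between the daf-2 and wild-type backgrounds. No member passed, where 0.823% of all tested genes were called, 0.0729% with a higher and 0.751% with a lower interaction. mtl-1 stood at -2.93 ± 1.56 (adjusted p = 0.232) and ftn-1 at -1.67 ± 1.09 (adjusted p = 0.292), both with the near-silent wild type and hel-1 libraries inside the contrast. Leaving out 1 library moved mtl-1 between -4.44 (without wild type replicate 2) and -0.40 (without hel-1 replicate 2), and ftn-1 between -2.56 (without wild type replicate 1) and -0.58 (without hel-1 replicate 2). The smallest p belonged to mtl-2, at 0.87 ± 0.29 (unadjusted p = 0.017, adjusted p = 0.137): both hel-1 libraries were below both wild-type libraries, and both double-mutant libraries were above both daf-2 libraries. The second separation is narrow (26.12 against 25.72 CPM) and was absent when levels were scaled by library totals alone (26.12 against 28.39). DESeq2 (0.98, adjusted p = 0.0243) and edgeR with no filter on low counts (0.91, adjusted p = 0.015) called it. ftn-2 stood at 0.00 ± 0.17 (adjusted p = 0.992).

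By mean level the order for mtl-1 was daf-2, hel-1;daf-2, hel-1 and wild type (31.7, 14.4, 0.338 and 0.0922 CPM), and for ftn-1 daf-2, hel-1;daf-2, hel-1 and wild type (13, 3.94, 0.12 and 0.118 CPM). In both the step between the second and the third was called, and the steps within the upper and the lower pair were not. For mtl-2 the order was hel-1;daf-2, wild type, daf-2 and hel-1 (32.8, 32.6, 25.5 and 22.9 CPM), and for ftn-2 hel-1;daf-2, hel-1, daf-2 and wild type (158, 153, 146 and 141 CPM). None of the neighbours in these last 2 orders that were tested passed.

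Within a library the share of each family that comes from its responsive gene needs no scaling between libraries. Per length, mtl-1 made up 40.8% and 62.0% of the metallothionein sum in daf-2 replicates 1 and 2 (exact 95% counting intervals 38.3 to 43.4% and 60.1 to 63.8%) and 24.8% and 31.6% in hel-1;daf-2 (22.4 to 27.3% and 29.5 to 33.7%). In wild type it made up 0.0894% and 0.412% and in hel-1 0.251% and 2.16%. In daf-2 replicate 1 mtl-1 stood at 0.69 times the level of mtl-2 (counting interval 0.62 to 0.767) and in replicate 2 at 1.63 times (1.51 to 1.76). The 2 libraries thus differ in which metallothionein was higher. They also differ in summed pharynx markers (21.1 and 146 CPM), and a link was not tested.

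ftn-1 stayed the minor ferritin everywhere. Per length it was 9.69% and 7.72% of the ferritin sum in daf-2 (exact 95% counting intervals 8.87 to 10.6% and 7.05 to 8.43%) and 3.43% and 1.64% in hel-1;daf-2 (2.97 to 3.95% and 1.28 to 2.05%). In the wild type and hel-1 libraries it was between 0.0423% and 0.137%. The summed ferritin level was 211 and 223 CPM per kilobase in wild type and 250 and 242 in daf-2, whereas the summed metallothionein level was 87.2 and 101 in wild type and 125 and 192 in daf-2.

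**Figure D3:**
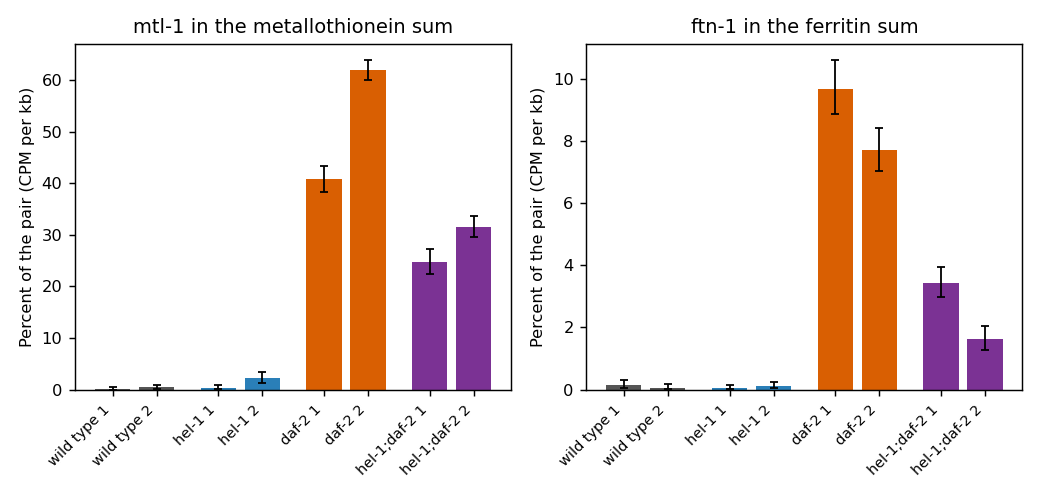
Share of mtl-1 in the summed metallothionein level (left) and of ftn-1 in the summed ferritin level (right), in percent of CPM per kilobase, for each of the 8 libraries; bars carry exact 95% counting intervals. The intervals cover counting error only, not the spread between replicates. In both families the daf-2 bars stand above the hel-1;daf-2 bars, although the mtl-1 levels in CPM overlapped between these strains. Levels of single genes in CPM did not overlap between these strains for 53.3% of all tested genes. No such figure was computed for shares within a pair of genes. The mean of mtl-2 was 25.5 CPM in daf-2 and 32.8 in hel-1;daf-2, which also enters the mtl-1 share. The axes differ: mtl-1 reaches 62.0% and ftn-1 9.69%.

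The 8 libraries held between 31555400 and 37552500 counts. daf-2 replicate 2 lay outside the range of the other libraries in its summed pharynx, muscle, neuron, hypodermis and germline markers. Its germline sum was below that range and the others were above it. The summed level of 15 pharynx markers was 146 CPM there, 21.1 in daf-2 replicate 1 and between 14.8 and 24 in the other 6, and mtl-1 was 44.4 CPM in that library against 19.1 in daf-2 replicate 1. Replicate 2 had more mtl-1 than replicate 1 in every genotype. From replicate 1 to 2 the pharynx sum was also higher in hel-1 (18.4 and 24 CPM), near level in hel-1;daf-2 (15.8 and 16.8) and lower in wild type (21.5 and 14.8). Of the 15 pharynx markers 1 was at 0 in both hel-1 libraries and none in both libraries of another genotype. Body wall muscle markers (6344 against 3432 CPM) and neuron markers (264 against 186) were also higher in daf-2 replicate 2. The hypodermis sum was higher there (1670 against 993 CPM, and at most 1070 elsewhere), although the median log2 difference over its 15 markers was -0.155. The oocyte and germline sum was lower (10390 against 13100 CPM, and at least 12280 elsewhere). Sperm genes (240 against 79.8 CPM) stayed within the range of the other libraries, 64.7 to 250.4. Intestine markers were level in daf-2 (3496 and 3537 CPM for 16 genes) and hel-1;daf-2 (3686 and 3840) and higher in wild type (4564 and 4641) and hel-1 (3920 and 5112), so their sum was lower where mtl-1 and ftn-1 were high. Over the 16 markers the median log2 fold change from wild type to daf-2 was -0.05, beside 0.10 for all tested genes. Of them 1 was higher, 3 lower and 12 not called, where 12.1% of all tested genes were higher and 7.21% lower. In hel-1;daf-2 against wild type the median was 0.01, beside 0.01 for all tested genes. The part of tissue make-up in the mtl-1 and ftn-1 results was not tested, and in whole worms fewer cells of a type and less RNA per cell cannot be told apart.

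Among the regulators daf-2 and hif-1 passed in daf-2 worms, and none passed in another comparison. The hel-1 transcript did not pass in any comparison (-0.16 ± 0.10, adjusted p = 0.521 in hel-1), so its level does not check the allele. daf-16 had a log2 fold change of 0.03 ± 0.09 from wild type to daf-2 (adjusted p = 0.844) and of -0.05 ± 0.09 from daf-2 to the double mutant (adjusted p = 0.741). elt-2 had 8.53 CPM in wild type and 12.31 in daf-2 (0.53 ± 0.16, adjusted p = 0.0565). hif-1, whose product represses the ferritin genes when iron is short, rose in daf-2 by 0.46 ± 0.08 (adjusted p = 0.011), from 100 to 138 CPM, and had an interaction of -0.57 ± 0.11 that did not pass (adjusted p = 0.0719).

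Other genes of iron and haem handling did not share the large rise of ftn-1. Of 15 tested, 3 were higher in daf-2 than in wild type and none lower, where 12.1% of all tested genes were higher and 7.21% lower, and the median log2 fold change was 0.21 beside 0.10 for all tested genes. Without daf-2 replicate 2, 1 was higher. hrg-7, which signals haem need between tissues, rose by 1.15 ± 0.13 (adjusted p = 0.00207), the haem transporter gene hrg-1 by 0.71 ± 0.19 (adjusted p = 0.0365) and hrg-9 by 1.697 ± 0.42 (adjusted p = 0.0327). In hel-1 against wild type 1 was higher, beside 0.364% of all tested genes. It was aco-1, the cytosolic aconitase gene whose homologue is the iron regulatory protein of mammals (152 to 224 CPM, 0.55 ± 0.08, adjusted p = 0.0475, named after its value was seen). None of the 15 was called from daf-2 to the double mutant by edgeR or DESeq2, and none had an unadjusted p under 0.05 there.

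Genes of zinc, copper and cadmium handling were split. Of 34 tested, daf-2 worms had 6 above and 6 below their wild-type level (beside 12.1% and 7.21% of all tested genes; median 0.07 beside 0.10), or 4 and 2 when daf-2 replicate 2 was left out. hmt-1, an ABC transporter gene needed for cadmium tolerance, rose by 2.28 ± 0.11 (adjusted p = 6.89e-05), from 14.4 to 70.0 CPM, and cdr-2 of the cadmium-responsive family, also counted below as DAF-16-activated, by 2.02 ± 0.24 (adjusted p = 0.003). The copper transporter gene chca-1 fell by 1.36 ± 0.17 (adjusted p = 0.00333) and toc-1 by 0.39 ± 0.06 (adjusted p = 0.00937). In hel-1 against wild type 1 was higher, beside 0.364% of all tested genes. It was cdr-4 (2.88 ± 0.33, adjusted p = 0.0174, named after its value was seen). None was called from daf-2 to the double mutant by edgeR, with 4 higher and 4 lower at an unadjusted p under 0.05 and 1 lower by DESeq2. hmt-1 stood there at 0.13 ± 0.10 (adjusted p = 0.422).

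**Figure D4:**
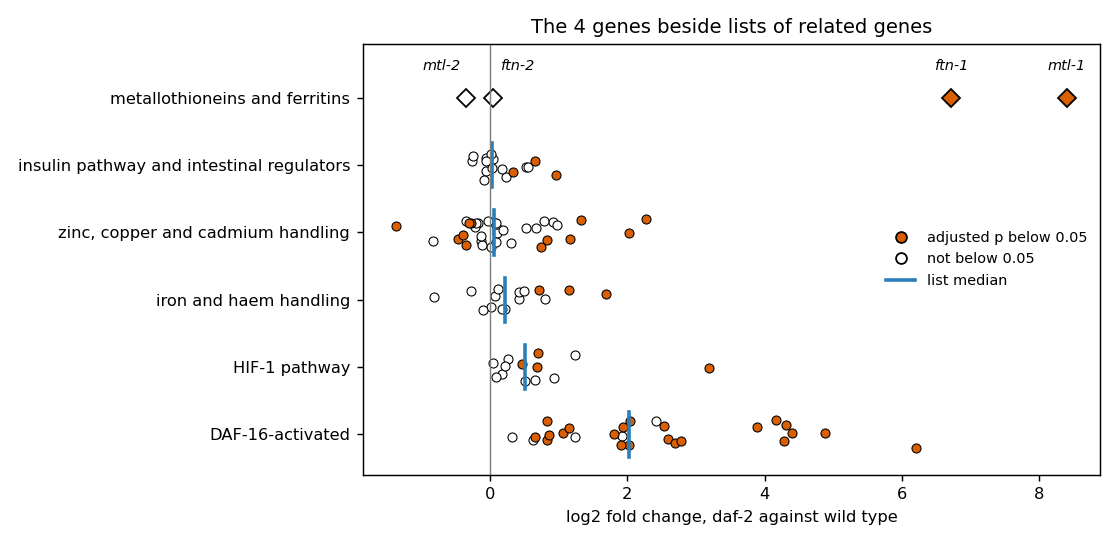
Log2 fold change in daf-2 against wild type of the 4 genes (diamonds) and of the tested members of 5 lists (circles, with vertical spread for legibility only), filled where the adjusted p is below 0.05, with the list medians as bars. mtl-1 (8.40) and ftn-1 (6.72) lie to the right of all 27 DAF-16-activated genes, whose highest value is 6.21, while mtl-2 and ftn-2 lie near 0. mtl-1 and ftn-1 had only 6 and 8 summed wild-type counts, and their rise was known when the genes were chosen.

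The HIF-1 pathway had 4 of 13 members higher and none lower in daf-2, beside 12.1% and 7.21% of all tested genes (median 0.51; 3 higher and median 0.31 without daf-2 replicate 2). Besides hif-1 these were sqrd-1, for a sulfide oxidoreductase (3.19 ± 0.36, adjusted p = 0.00225), the carbonic anhydrase gene cah-4 (0.70 ± 0.16, adjusted p = 0.0246) and the cysteine synthase-like gene cysl-1 (0.69 ± 0.18, adjusted p = 0.0374). From daf-2 to the double mutant the median was -0.47 beside -0.02 for all tested genes (-0.20 without daf-2 replicate 2). No member was called there by edgeR, 8 were lower at an unadjusted p under 0.05 and 2 were lower by DESeq2. sqrd-1 had 9.10 CPM in daf-2 and 2.12 in hel-1;daf-2 (-2.099 ± 0.34, unadjusted p = 0.000268, adjusted p = 0.121).

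The insulin pathway and intestinal regulators had 3 of 16 members higher and none lower in daf-2 by edgeR (median 0.03), beside 12.1% and 7.21% of all tested genes. The counts were 2 higher and 2 lower by DESeq2, and 1 higher without daf-2 replicate 2. The 3 were the kinase genes akt-2 (0.96 ± 0.21, adjusted p = 0.023) and pdk-1 (0.65 ± 0.15, adjusted p = 0.0261) and daf-2 itself (0.33 ± 0.08, adjusted p = 0.0308). None of the 16 was called from daf-2 to the double mutant by edgeR or DESeq2, and none had an unadjusted p under 0.05.

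Most DAF-16-activated genes were higher in daf-2, as were mtl-1 and ftn-1. Of 27 tested, not counting the members, 22 were higher and none lower in daf-2, beside 12.1% and 7.21% of all tested genes (median 2.02). In hel-1;daf-2 against wild type 12 were higher and none lower, beside 3.1% and 1.17% of all tested genes (median 1.45, or 1.48 without daf-2 replicate 2). The list was drawn from published studies of these pathways and chosen with results of these data known, so its direction in daf-2 is not independent evidence. Its member ins-7 is of uncertain fit to the list and was near the floor (0.105 CPM in wild type, 0.243 in daf-2, adjusted p = 0.426). In hel-1 against wild type 1 was higher, fat-5 (2.25 ± 0.17, adjusted p = 0.00195), beside 0.364% of all tested genes (list median 0.49, or 0.51 without daf-2 replicate 2). In hel-1;daf-2 against hel-1, where mtl-1 and ftn-1 rose, 7 were higher, 1 lower and 19 not called (median 0.74, or 0.75 without daf-2 replicate 2). Of all tested genes 2.96% were higher there and 2.65% lower. The lower gene of the list was fat-5 (-0.84 ± 0.16, adjusted p = 0.0264). It was also the 1 gene of the list with a called interaction (-2.78 ± 0.23, adjusted p = 0.00565), where 0.823% of all tested genes were called. The list median of the interaction was -1.18, or -0.83 without daf-2 replicate 2. The interaction holds the same daf-2 libraries, so this direction is not independent evidence either. The 4 with the smallest adjusted p in daf-2 were the superoxide dismutase gene sod-3 (4.17 ± 0.20), dod-6 (6.21 ± 0.45), the desaturase gene fat-5 (1.94 ± 0.17) and the acid sphingomyelinase gene asm-2 (2.03 ± 0.19). In all 3 comparisons of a daf-2 strain with a strain that lacks the mutation, mtl-1 and ftn-1 had higher fold changes than each of the 27. Their baselines were near silent, with 6 and 8 summed counts in wild type and 22 and 8 in hel-1. The rise of both was known when the genes were chosen, so this ranking is a description only.

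From daf-2 to the double mutant none of the 27 was called by edgeR, 24 lay below 0 and the median was -0.63 (-0.27 without daf-2 replicate 2), where 51.6% of all tested genes lay below 0. 12 were lower at an unadjusted p under 0.05 and 4 were lower by DESeq2. The list was chosen with results of these data known, and the daf-2 libraries where it is high are the baseline here. Its direction in this comparison is therefore not independent evidence either. dod-6 had 124 CPM in daf-2 and 39.8 in hel-1;daf-2 (-1.64 ± 0.33, adjusted p = 0.204), sod-3 27.6 and 19.3 (-0.52 ± 0.16, adjusted p = 0.267), fat-5 88.2 and 61.4 (-0.52 ± 0.16, adjusted p = 0.267) and asm-2 28.4 and 21.5 (-0.40 ± 0.18, adjusted p = 0.301). Of the 27, 22 had a higher value than mtl-1 and 26 a higher value than ftn-1.

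The pattern of each gene over the 8 libraries was compared with the 7944 tested genes of at least 5 CPM on average, by Pearson's r of log2(CPM + 1). The libraries fall into 2 strains with and 2 without the daf-2 mutation, and all genes share their library scaling, so these values are descriptions. mtl-1 and ftn-1 were alike (r = 0.921), whereas mtl-1 with mtl-2 gave 0.116 and ftn-1 with ftn-2 0.163. The genes most like mtl-1 were the superoxide dismutase gene sod-1 (0.994), C25E10.8 (0.993), dod-6 (0.99), the glutathione S-transferase gene gst-39 (0.988) and the cathepsin gene cpz-2 (0.988). All 5 were higher in daf-2, from 0.45 (sod-1) to 6.21 (dod-6) on the log2 scale. That direction follows largely from choosing them by likeness to mtl-1 in the same libraries.

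The genes most like ftn-1 were the collagen gene col-155 (0.985), the teneurin gene ten-1 (0.984), the nuclear receptor gene nhr-62 (0.979), H18N23.2 (0.975) and grk-1 (0.973). They too were all higher in daf-2, and had log2 fold changes from -0.09 (ten-1) to -0.73 (nhr-62) from daf-2 to the double mutant. Both directions again follow largely from the choice by likeness. Those most like mtl-2 were F44E2.10 (0.971), the Mediator gene mdt-10 (0.967), F08F8.7 (0.957), emb-1 (0.949) and F44G4.3 (0.948), of which none passed in daf-2. Those most like ftn-2 were F32H5.1 (0.956), Y7A5A.1 (0.954), the cathepsin B gene cpr-4 (0.948), the ribosomal RNA gene rrn-3.1 (0.911) and WBGene00004677 (0.896), again none called in daf-2. The likenesses to mtl-2 and ftn-2 rest on differences close to those between replicates.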

How the data were processed

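The deposited values are expected counts per gene, 1 table per library, per the file headers. The submitters' processing notes name RSEM 1.3.1, FastQC, cutadapt, TopHat2, Bowtie, HTSeq and edgeR and the builds WBcel235 and ce11; the sources used here do not give the strand setting of the counting. Expected counts were rounded (2.03 to 2.79% of values per library were not whole). Genes were filtered by filterByExpr and tested with edgeR 4.0.16 (quasi-likelihood, TMM, 4 group means over 8 libraries, R 4.3.3) at a Benjamini-Hochberg adjusted p of 0.05 over all 13722 tested genes; standard errors are the fold change over the root of F. DESeq2 1.42.0 was an alternative. The code was checked on simulated data. Lengths are merged exons of the annotation. Named genes are the members, 5 regulators, up to 4 called in daf-2 by smallest adjusted p per list, and 5 most alike each member. Members and lists were chosen with earlier results of these data known. Promoter sequences were not analysed here. Labels do not say that replicate numbers pair libraries.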

Additional observations from a re-analysis of the deposited data

Results flagged for a closer look

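mtl-2 was flagged because the hel-1 mutation went with lower levels in the wild-type background and higher levels in the daf-2 background, each without overlap between libraries under TMM scaling. With library totals alone the daf-2 (25.61 and 28.39) and hel-1;daf-2 (26.12 and 39.87) libraries overlapped. Its interaction was 0.87 on the log2 scale and did not pass the test (adjusted p = 0.137).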

How the results depend on the processing

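Of 330 values of the 4 genes under other settings, 293 kept their direction and side of the threshold, 5 lost a call, 7 gained one and 25 changed sign, all of these uncalled. The rises of mtl-1 and ftn-1 in daf-2 were called under every setting run. Calls gained outside the fits without a library were ftn-1 from daf-2 to the double mutant (-1.696 with no filter, -1.66 by DESeq2), mtl-2 against hel-1 (0.53 with no filter) and the mtl-2 interaction (0.91 with no filter, 0.98 by DESeq2). Signs changed for ftn-2 in daf-2 (-0.016 with RLE factors, -0.041 by DESeq2), mtl-2 in hel-1;daf-2 against wild type (-0.013 with RLE, -0.015 by DESeq2, -0.00076 in the fit of 2 groups), the ftn-2 interaction (0.073 with RLE, 0.032 with no filter, 0.10 by DESeq2) and ftn-1 in hel-1 (0.030 with library totals). The replicate block gave 0.0033 for ftn-1 in hel-1, -0.0095 for mtl-2 in hel-1;daf-2 against wild type, 0.0015 for the ftn-2 interaction and 11 calls between hel-1;daf-2 and its daf-2 control in place of 7, and changed no call of the 4 genes; deviations of libraries with the same number correlated from -0.479 to 0.226 between genotypes, so this check did not show pairing. The block lowered the SE of mtl-1 from 0.969 to 0.458 in daf-2 and from 0.572 to 0.268 from daf-2 to the double mutant. Library totals moved the median of all genes in daf-2 by 0.169 and in the interaction by -0.157, no filter moved the interaction by -0.186 and DESeq2 by -0.103.

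Leaving out 1 library gave ranges of -0.0044 to 0.084 for ftn-2 in daf-2. In hel-1 they were -0.73 to 3.31 for mtl-1, -1.13 to 0.85 for ftn-1 and -0.071 to 0.28 for ftn-2. Against daf-2 the double mutant ranged from -1.76 to -0.39 for mtl-1 and -2.49 to -1.21 for ftn-1. Against hel-1 it ranged from 4.53 to 7.99 for mtl-1 and -0.12 to 0.24 for ftn-2, and against wild type from 6.50 to 8.79 for mtl-1, -0.32 to 0.28 for mtl-2 and 4.22 to 5.91 for ftn-1. The interaction ranged from -4.44 to -0.40 for mtl-1, -2.56 to -0.58 for ftn-1 and -0.16 to 0.20 for ftn-2. With a library left out, its genotype's other library is assumed to vary like the rest.

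Counts of called genes over all genes moved more. In daf-2 2648 became 424 in the fit of 2 groups, and 297 to 7163 without 1 library. In hel-1 57 became 361 with no filter, 237 by DESeq2 and 213 in the fit of 2 groups, and 9 to 482 without 1 library. Against daf-2 the double mutant had 7 calls, which became 2 with library totals, 610 with no filter, 234 by DESeq2 and 0 by edgeR in the fit of 2 groups, where 1263 genes had an unadjusted p under 0.05, and 0 to 5812 without 1 library. Against hel-1 770 became 1278 with no filter and 2909 in the fit of 2 groups, and 149 to 2272 without 1 library. Against wild type 585 became 1084 with no filter and 2608 in the fit of 2 groups, and 128 to 2138 without 1 library. The interaction count became 69 with library totals, 1215 with no filter and 591 by DESeq2, and 7 to 6664 without 1 library. The cause was not tested. With 1 to 20 counts of mtl-1 and ftn-1 per library outside the daf-2 strains, depth limits every fold change against wild type or hel-1.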

Other observations

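The library numbered 2 had more mtl-1 than the library numbered 1 in each of the 4 genotypes, 5.34 times in wild type, 2.33 times in daf-2, 11.8 times in hel-1 and 2.12 times in hel-1;daf-2, the first and the third on few counts. For mtl-2 these ratios were 1.16, 0.985, 1.34 and 1.51. For ftn-1 they were 0.356, 0.772, 3.53 and 0.41, and for ftn-2 1.06, 0.99, 1.28 and 0.876.

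The nearest tested genes on either side of mtl-1 were K11G9.5 (2.19 CPM in wild type and 2.82 in daf-2, adjusted p = 0.388) and W02F12.8 (0.15 and 0.429 CPM, adjusted p = 0.0748), the second 383 bases away. Beside ftn-1 stood nhx-3 (4.36 and 5.66 CPM, adjusted p = 0.267) and F19F10.3 (0.681 and 2.02 CPM, adjusted p = 0.0519). Of the 8 neighbours of the 4 genes 1 was called in daf-2, where 19.3% of all tested genes were called. It was ins-10, an insulin-like peptide gene 15275 bases from mtl-2 (0.0145 and 1.7 CPM, adjusted p = 0.0014), close to no counts in wild type. These genes were chosen by position.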
